A study of Mus musculus with 4 samples.

Results

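The small nuclear and nucleolar RNA genes described here are 103 of the 53465 genes in the deposited table, which gives FPKM. FPKM are fragments mapped to a gene, scaled to its exon length and by a factor for each library. These 103 genes had the biotype snoRNA, scaRNA, snRNA, ribozyme or misc_RNA, and their FPKM averaged at least 10 over the 4 libraries. They were chosen by that mean level, so their levels are given as a description. A gene high in 1 group only can reach the mean through that group, and the difference between the groups is then not independent of the choice, as is said below where it applies. The libraries were Long RNA-seq of FGSCs, a mouse ovarian culture labelled as germ stem cells, in 2 groups: cells labelled shnc, which carried a control shRNA (shNC-1 and shNC-2), and cells labelled shnat10, which carried a lentiviral shRNA against *Nat10* (shNAT10-1 and shNAT10-2). The study's methods describe drug selection of infected cells, the promoter and the age of the mice are not given in the sources used here, and the 2 libraries of a group are described by the study as biological replicates, while neither the labels nor the methods say whether they came from separate cultures or infections, so that p-values measure the spread between these libraries. *Nat10*, the RNA acetyltransferase that the shRNA targets, was at 7.79 FPKM in shNC-1, 5.42 FPKM in shNC-2, 2.95 FPKM in shNAT10-1 and 3.04 FPKM in shNAT10-2, which do not overlap, with a log2 fold change of -1.09 (SE 0.17) (adjusted p = 0.0173 by limma; the exact two-sided permutation test gave p = 0.333, the smallest that 2 against 2 libraries allow). Without shNC-1 or shNC-2 its log2 fold change was -0.83 or -1.35, past the threshold used below, and without shNAT10-1 or shNAT10-2 it was -1.07 or -1.11 and missed it.

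Most of these RNAs work as guides or scaffolds inside ribonucleoprotein particles. Box C/D snoRNAs, named Snord in mouse, carry a C box near the 5′ end and a D box near the 3′ end and direct ribose methylation of rRNA with fibrillarin. Box H/ACA snoRNAs, named Snora, end in an ACA and direct pseudouridylation with dyskerin, and scaRNAs do the same for spliceosomal snRNAs in Cajal bodies. Some snoRNAs, such as U3, U8, U13, U14 and U17, act in rRNA maturation, U14 besides its role in methylation. U13 (*Snord13*) pairs with 18S rRNA at a site that NAT10 acetylates. The snRNAs U1, U2, U4 and U5 build the major spliceosome, and U11, U12 and U6atac belong to the minor one. The misc_RNA class holds 7SK, which keeps the elongation kinase P-TEFb inactive, 7SL of the signal recognition particle, the Y and vault RNAs and telomerase RNA, and the ribozyme class holds the RNA of RNase P, which trims tRNA precursors.

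The libraries held 11059031 to 14899872 fragments on genes, as recovered from FPKM and exon length, and the 103 genes took 1.60% to 2.84% of them, nearly all on *Rn7sk* alone (89.6% to 91.4% of those fragments). The other genes rested on 34 to 22121 fragments over the 4 libraries, with a median of 183, and 3 fragments, taken as the floor, were worth 2.80 to 3.65 FPKM at 70 bases. These floors and counts cover counting error only. Most defining germ cell markers were at or near 0: *Dazl*, *Pou5f1*, *Dppa3* and *Mael* were listed at 0 in every library, *Ddx4* reached 0.0529 FPKM in a single library and *Prdm1* stayed under 0.1 FPKM. *Ifitm3* gave the 7-gene list nearly all of its summed level of 9.38 to 22.3 FPKM in shNC, against 27.3 to 33.6 FPKM in shNAT10, where it passed the threshold used here (log2 fold change 1.06, adjusted p = 0.154). The 3 leukocyte markers summed to 256 to 288 and 236 to 250.4 FPKM, and the mast cell list to 271 to 284 and 286 to 290.1 FPKM, mostly *Cpa3*. Genes of these lists moved in both directions: *Ms4a2* was called higher (2.12 (SE 0.27), adjusted p = 0.00716), *Kit* lower (-0.60 (SE 0.11), adjusted p = 0.0282) and *Lcp1* lower (-0.37 (SE 0.09), adjusted p = 0.0755), and of the fibroblast list *Pdgfra* was called higher (0.83 (SE 0.14), adjusted p = 0.0223). The fibroblast list lay between 44.2 and 59.5 FPKM, and the oocyte and granulosa lists stayed under 0.3 FPKM. In bulk RNA, fewer cells of a type and less RNA per cell cannot be told apart, and the part of any of these cell types in the results below was not tested.

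The sequences below belong to genes the comparison describes, copied from the transcript file of GENCODE M21 on GRCm38, which corresponds to the mm10 build named in the processing notes. The first set shows nucleolar RNAs: U8 (*Snord118*), the intronic guide *Snord87*, and an H/ACA guide, *Snora57*. Capitals mark the C box letters TGATGA and the D box letters CTGA, or the ACA 3 bases from the 3′ end. *Snord118* lies at chr11:69073427-69073561, plus strand, *Snord87* at chr1:9942463-9942549, minus strand in an intron of *Snhg6*, and *Snora57* at chr19:8888538-8888685, minus strand, opposite an intron.
Snord118: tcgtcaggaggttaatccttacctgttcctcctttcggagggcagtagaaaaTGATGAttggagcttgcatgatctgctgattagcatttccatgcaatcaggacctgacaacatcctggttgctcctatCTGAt
Snord87: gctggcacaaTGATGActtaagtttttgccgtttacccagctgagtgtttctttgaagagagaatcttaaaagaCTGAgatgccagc
Snora57: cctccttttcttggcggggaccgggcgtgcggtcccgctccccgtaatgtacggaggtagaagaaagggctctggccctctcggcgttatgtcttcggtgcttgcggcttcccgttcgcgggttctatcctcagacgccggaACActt
The C and D letters, with TGATGA anywhere before the last 15 bases and CTGA within them on the transcript strand, were found in 16 of the 51 snoRNA genes (31.4%) and in 22.8% of all 1507 annotated snoRNA genes. The ACA stood at its place in 23 of the 51 (45.1%) and in 18.3% of the annotated ones.

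The second set shows spliceosomal RNAs that exist in several near-identical copies. *Gm22614*, *Gm24830* and *Gm22513* are U1-like, and capitals mark CTTACCT, part of the 5′ stretch with which U1 pairs with 5′ splice sites, and the Sm-type letters. *Gm25360*, *Gm24497* and *Gm26316* are U2-like, with GTAGTA of the branch-point-pairing stretch and the Sm-type letters in capitals. *Gm24265* and *Gm24407* carry the 5′ sequence of U4, and *Rnu12* is U12, with the Sm-type letters in capitals. All are on the plus strand: *Gm22614* at chr3:96488729-96488893, *Gm24830* at chr3:96328425-96328590, *Gm22513* at chr12:54696782-54696945, *Gm25360* at chr1:72226240-72226430, *Gm24497* at chr1:72244213-72244403, *Gm26316* at chr11:101604850-101605040, *Gm24265* at chr5:115489459-115489599, *Gm24407* at chr5:115490254-115490394 and *Rnu12* at chr15:83149644-83149794.
Gm22614: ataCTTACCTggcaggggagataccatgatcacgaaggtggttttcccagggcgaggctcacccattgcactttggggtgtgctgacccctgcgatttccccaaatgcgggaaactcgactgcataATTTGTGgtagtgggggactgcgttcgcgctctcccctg
Gm24830: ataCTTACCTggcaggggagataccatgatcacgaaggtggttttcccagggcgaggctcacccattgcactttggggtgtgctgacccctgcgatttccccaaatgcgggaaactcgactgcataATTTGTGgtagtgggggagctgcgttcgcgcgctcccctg
Gm22513: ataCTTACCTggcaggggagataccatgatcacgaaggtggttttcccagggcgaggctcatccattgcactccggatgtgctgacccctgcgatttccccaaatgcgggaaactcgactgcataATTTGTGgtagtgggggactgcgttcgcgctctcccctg
Gm25360: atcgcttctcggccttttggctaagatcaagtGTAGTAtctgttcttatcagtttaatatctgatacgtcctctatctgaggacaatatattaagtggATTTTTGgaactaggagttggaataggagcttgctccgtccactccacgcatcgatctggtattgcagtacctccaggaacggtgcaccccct
Gm24497: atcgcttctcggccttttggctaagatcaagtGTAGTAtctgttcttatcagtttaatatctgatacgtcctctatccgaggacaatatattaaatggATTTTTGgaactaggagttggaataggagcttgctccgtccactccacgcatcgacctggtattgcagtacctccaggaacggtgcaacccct
Gm26316: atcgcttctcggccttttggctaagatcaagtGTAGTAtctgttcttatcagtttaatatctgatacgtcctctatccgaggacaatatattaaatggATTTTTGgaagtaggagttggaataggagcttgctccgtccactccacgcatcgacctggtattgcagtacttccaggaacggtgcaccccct
Gm24265: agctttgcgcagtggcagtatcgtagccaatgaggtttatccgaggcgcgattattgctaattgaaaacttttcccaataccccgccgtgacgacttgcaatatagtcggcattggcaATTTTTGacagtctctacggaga
Gm24407: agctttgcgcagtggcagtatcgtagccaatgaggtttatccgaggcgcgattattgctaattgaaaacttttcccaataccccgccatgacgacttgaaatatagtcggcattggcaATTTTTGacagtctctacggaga
Rnu12: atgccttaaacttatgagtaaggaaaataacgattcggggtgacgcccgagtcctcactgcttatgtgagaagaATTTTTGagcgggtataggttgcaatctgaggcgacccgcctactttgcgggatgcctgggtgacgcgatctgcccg
*Gm22614* differed from *Gm24830* by 2 bases and from *Gm22513* by 5, counting gaps. The U2-like *Gm25360* and *Gm26316* differed by 5 bases, and the U4-like pair by 2. CTTACCT was found in 10 of the 26 snRNA genes and in 5.35% of the 1383 annotated snRNA genes, GTAGTA in 7 and 3.69%, and the Sm-type letters ATTTNTG or ATTTTNTG in 24 and 22.3%, all searched on the transcript strand. Of all 103 genes, 33 were at least 95% identical to another annotated gene of these biotypes and 11 were identical to one, so that reads of 1 copy can be counted on another. How reads with several matches were counted is not given in the sources used here.

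Levels between genes are compared here as mean FPKM over the 4 libraries, which is per length, and ran from 10.1 to 65549. 7SK (*Rn7sk*) was by far the highest at 55303 FPKM in shNC-1, 72238 FPKM in shNC-2, 68969 FPKM in shNAT10-1 and 65686 FPKM in shNAT10-2. The leading genes of the other kinds were the scaRNA *Scarna2* (1041 FPKM), the U17 snoRNA *Snora73b* (918), the Y RNA *Rny3* (851), the U4-like *Gm24265* (740.3) and the RNase P RNA-like *Rprl3* (536). Medians were 187 FPKM for the 8 scaRNA genes, 24.6 for the 51 snoRNA genes, 21.4 for the 26 snRNA genes, 31.1 for the 3 ribozyme genes and 23.1 for the 15 misc_RNA genes. By contrast, 12 of the 42 named small RNAs that were looked up by role were listed at 0 in every library. These were the U3 genes *Rnu3a*, *Rnu3b2* and *Rnu3b3*, the U14 genes *Snord14a*, *Snord14c*, *Snord14d* and *Snord14e*, U22 (*Snord22*), the RNA of RNase MRP (*Rmrp*), *Rnu6*, *Rnu7* and *Scarna10*. Since every cell uses RNase MRP, U3 and U6, a listing at 0 is given here as a listing only. The labels describe mRNA isolation and the study's methods rRNA depletion, which keep short RNAs without a poly(A) tail to different extents, so the levels and their order are those of these libraries and not of the RNAs in the cells. Of that list 20 had at least 10 FPKM, 19 had less and 3 were not analysed here.

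**Figure D1:**
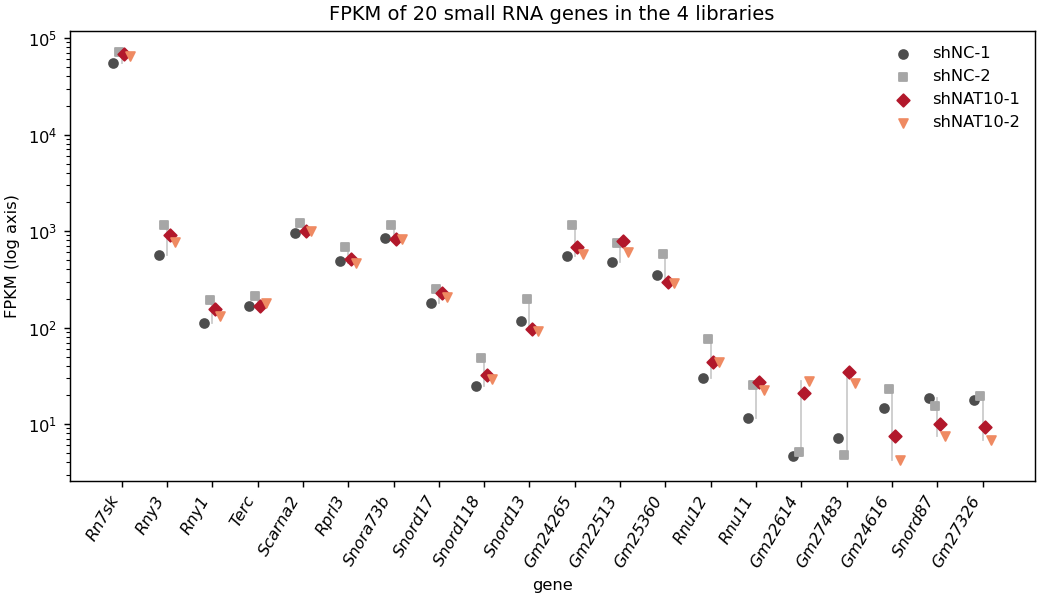
FPKM of 20 small RNA genes in each library on a log axis, 1 column of points per gene, circles and squares for shNC-1 and shNC-2, diamonds and triangles for shNAT10-1 and shNAT10-2. *Rn7sk* lies far above the rest, shNC-2 is the highest point for most of the abundant genes, and only *Gm22614* and *Gm27483* among those shown have both shNAT10 points well above both shNC points.

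The first pattern in these genes lay between the 2 control libraries. shNC-2 exceeded shNC-1 for 81 of the 103 genes, with a median difference of 0.43 on the log2 scale, whereas 47.4% of all genes tested did, with a median of 0. All 26 snRNA genes were higher in shNC-2 (median 0.80), as were all 8 scaRNA genes (median 0.47) and 37 of 51 snoRNA genes (median 0.39). By place of the gene, the median was 0.70 for the 30 genes that overlap no other gene, all of them higher in shNC-2, 0.39 for the 51 in an intron of a host on the same strand, -0.23 for the 13 that lie across an exon of a gene on the other strand, 1.24 for the 4 opposite an intron and 0.43 for the 5 within an exon on the same strand. Place and biotype are mixed, since 16 of the 30 genes are snRNA genes and 8 of the 13 are misc_RNA genes, and neither was tested against the other. *Rnu12*, for example, had 29.9 and 75.3 against 43.8 and 43.6 FPKM, and *Gm24265* had 548 and 1152 against 685 and 577 FPKM. The shNAT10 libraries stood closer to each other (median difference -0.13), and for 35 genes both lay between the 2 shNC libraries. The called small RNA genes and the main counts and medians are therefore given below with each library left out in turn, in the order shNC-1, shNC-2, shNAT10-1 and shNAT10-2, and what sets shNC-1 and shNC-2 apart was not tested. In such a fit the lone library of a group is assumed to vary like the other group.

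**Figure D2:**
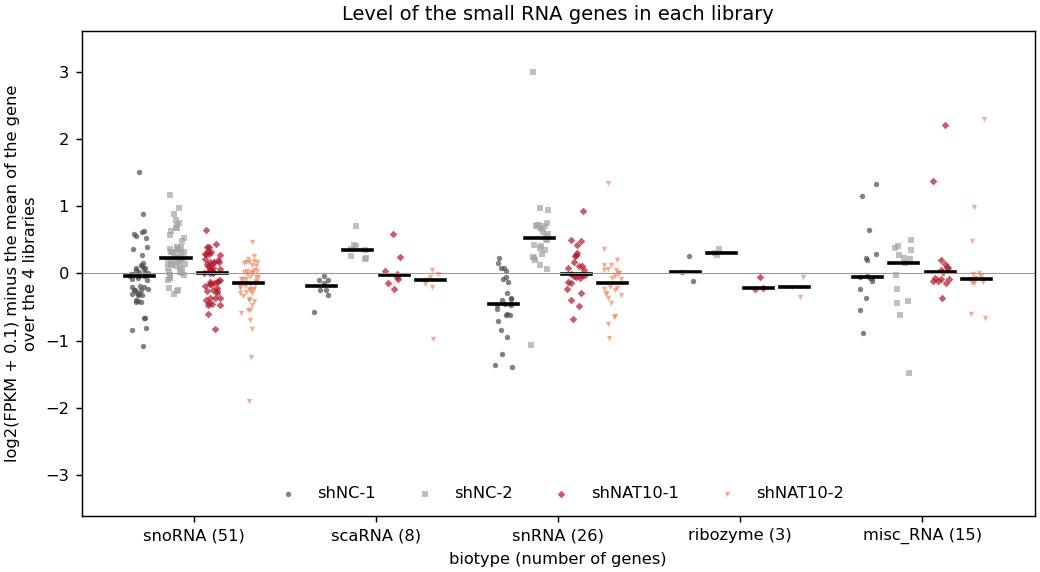
Level of each small RNA gene in each library, as log2(FPKM + 0.1) minus the mean of that gene over the 4 libraries, by biotype, with the number of genes in parentheses and a black bar at each median. The snRNA median was -0.45 in shNC-1 and 0.53 in shNC-2, with -0.01 and -0.14 in the shNAT10 libraries; 1 point, *Gm27786* in shNC-2, lies below the axis.

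Between the groups, few of the 103 genes differed. A gene was called when limma, run on log2(FPKM + 0.1) over all genes, gave a change of more than 1.2-fold with p up to 0.05 before adjustment. By this threshold 3 genes were higher in shNAT10 and 8 lower. That is 2.91% and 7.77%, beside 9.55% and 8.74% of the 20077 genes tested, so in this fit the share called higher was under the background and the share called lower near it. With all libraries the share called lower was above the background in some fits, at 14.6% beside 8.46% with a pseudocount of 1 and 12.6% beside 7.84% with the variance trend on FPKM, and below it in others, at 4.85% beside 8.35% with a pseudocount of 0.01 and 6.80% beside 12.2% among genes of at least 1 FPKM. An adjusted p under 0.05 was reached by 2 of the 103 genes (1.94%) and by 3.33% of all genes. Both shNAT10 libraries lay above both shNC libraries for 8 genes (7.77%) and below both for 30 (29.1%), where all genes tested gave 23.9% and 24.1%. The median log2 fold change was -0.12, against 0.01 over all genes. It became -0.40 without shNC-1 and 0.10 without shNC-2, and the counts became 3 higher and 15 lower without shNC-1, 6 and 2 without shNC-2, 2 and 4 without shNAT10-1, and 2 and 0 without shNAT10-2. The shares called lower in these 4 fits were 14.6%, 1.94%, 3.88% and 0%, beside 8.33%, 7.46%, 4.38% and 4.79% of all genes. By limma-voom on recovered fragments, 3 were higher and 10 lower (2.91% and 9.71%, beside 10.1% and 9.32% of all genes). Of the 11 genes called, 7 had a mean under 10 FPKM in 1 of the groups and passed the minimum through the other, as did 9 further genes that were not called, so the minimum itself selected them partly for a difference. These were the 3 called higher (*Gm22614*, *Gm27483* and *Gm27786*), which include both genes with an adjusted p under 0.05, and *Gm27553*, *Gm27326*, *Snord87* and *Gm24616* among those called lower. The other 4, *Gm25043*, *Gm25360*, *Gm26316* and *Snord13*, averaged at least 10 FPKM in both groups.

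**Figure D3:**
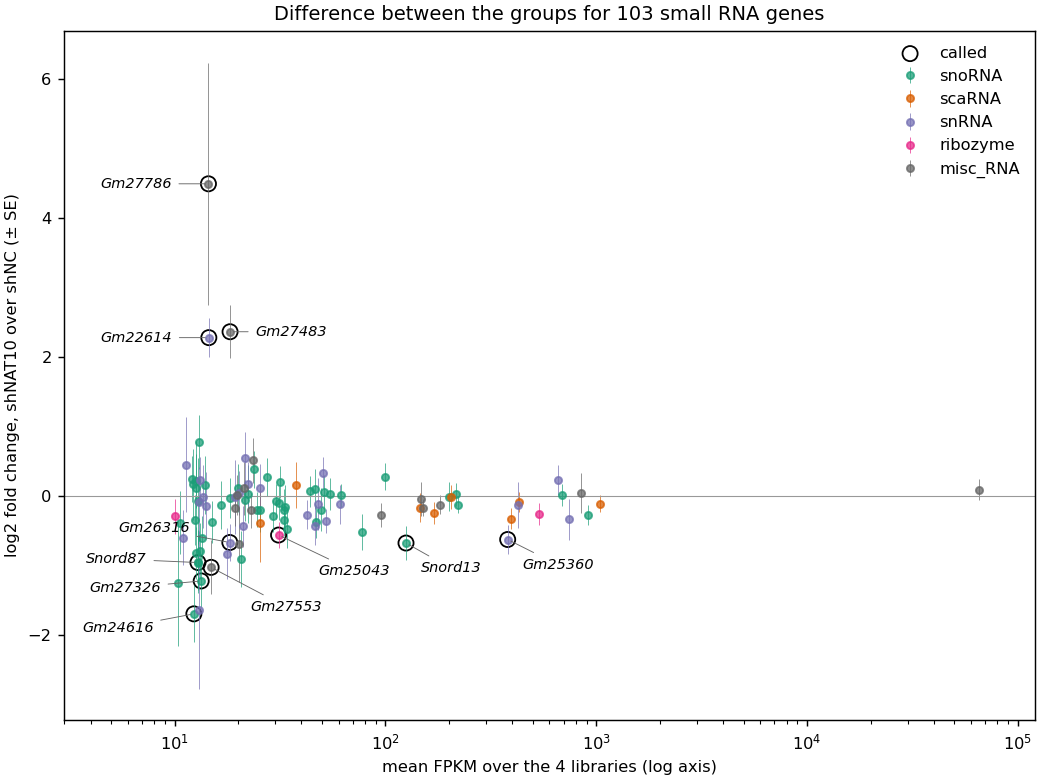
Log2 fold change of shNAT10 over shNC (vertical axis, bars ± SE) against mean FPKM over the 4 libraries (log axis) for the 103 genes, coloured by biotype, with the 11 genes past the threshold circled and named. Most points lie within 1 unit of 0, the 3 higher genes stand apart at 2.28 to 4.49, and *Snord13* and *Gm25360* are the called genes with the highest levels.

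By biotype the median log2 fold changes were -0.12 for snoRNA genes (0 higher and 4 lower of 51), -0.14 for scaRNA (0 and 0 of 8), -0.12 for snRNA (1 and 2 of 26), -0.29 for ribozyme (0 and 1 of 3) and -0.04 for misc_RNA (2 and 1 of 15). Over all genes tested, 9.55% were called higher and 8.74% lower. Summed over its genes, the snoRNA class held 3318 and 4306 FPKM for shNC against 3499 and 3309 FPKM for shNAT10, which overlap. The scaRNA sums of 2302 and 2329.6 FPKM in shNAT10 lay between the 2226 and 2941 FPKM of shNC. So did the snRNA sums of 2764 and 2348 FPKM, between 2088 and 3904 FPKM. The SD of a biotype's median level between the libraries of a group ran from 0.118 for misc_RNA to 0.496 for snRNA on the log2 scale, and differences between biotypes were not tested.

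The question of Snord against Snora can be put to 13 and 11 genes by symbol. The median log2 fold change was -0.07 for Snord (quartiles -0.20 and 0.06) and -0.06 for Snora (quartiles -0.24 and -0.00179), a difference of -0.01. The Snord median was -0.21 without shNC-1 and 0.10 without shNC-2, the Snora median -0.32 without shNC-1 and 0.0718 without shNAT10-2, and their difference ranged from -0.15 to 0.11 when libraries were left out in turn. In single libraries the Snord median level minus the Snora median level was -0.13 and 0.0036 in shNC and -0.23 and 0.18 in shNAT10 on the log2 scale, with overlapping groups. With each gene set against its own mean over the libraries, the same difference of medians was -0.15 and -0.14 in shNC and -0.03 and 0.07 in shNAT10, which do not overlap, and 2 against 2 libraries cannot pass an exact test at 0.05. Of the 13 Snord genes 0 were called higher and 2 lower by limma (15.4%, beside 8.74% of all genes), and of the 11 Snora genes 0 and 0, with 0 at p under 0.05 before adjustment. Of the 2 Snord genes called lower, *Snord87* reached the minimum of 10 FPKM only through shNC, so it was partly selected for a difference. The Snord calls became 1 lower without shNC-1, 0 without each other library, and 1 higher and 3 lower with a pseudocount of 1, and without shNC-1 1 Snora gene was lower. On recovered fragments limma-voom called 1 Snord and 1 Snora gene lower. Grouping by box letters instead of by symbol gave -0.09 for 21 snoRNA and scaRNA genes with C and D letters and -0.17 for 25 with the ACA.

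Among the box C/D RNAs that act in rRNA maturation, U13 (*Snord13*), the guide that pairs with the 18S site NAT10 acetylates, had 116 FPKM in shNC-1, 196 FPKM in shNC-2, 97.3 FPKM in shNAT10-1 and 91.6 FPKM in shNAT10-2. Both shNAT10 values lay below both shNC values, though shNC-1 was closer to the shNAT10 libraries than to shNC-2. The means were 156 ± 56.4 and 94.4 ± 4.04 FPKM (SD, n = 2 each), from 142, 242, 127 and 146 fragments. U13 fell by this threshold, with a log2 fold change of -0.68 (SE 0.24), but did not pass after adjustment (adjusted p = 0.180 by limma). Leaving out single libraries gave -1.05, -0.30, -0.72 and -0.63, and only the fit without shNC-1 passed the threshold. In all, 9 of 15 alternative fits passed it. The lowest adjusted p, 0.0180 by limma, came from the replicate block, although replicate numbers did not pair the libraries. It was 0.0494 by limma-voom and 0.464 by limma without a variance trend. U8 (*Snord118*), needed for 28S and 5.8S rRNA, was at 24.6 and 48.05 against 32.5 and 28.99 FPKM, with both shNAT10 values between the shNC values and a log2 fold change of -0.16 (SE 0.32). *Snord17*, the most abundant Snord, had 181 and 251 against 227 and 206 FPKM and a log2 fold change of 0.02. U3 was listed at no more than 0.302 FPKM at any of its named genes.

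The second Snord past the threshold was *Snord87*, a methylation guide in an intron of the non-coding host *Snhg6*, with 18.6 FPKM in shNC-1, 15.5 FPKM in shNC-2, 10.1 FPKM in shNAT10-1 and 7.50 FPKM in shNAT10-2, from 19, 16, 11 and 10 fragments. Its log2 fold change was -0.96 (SE 0.39) (adjusted p = 0.241), while that of *Snhg6* was -0.25 and not called. With 1 library removed at a time the value became -0.83, -1.09, -1.17 and -0.75, and none of these fits passed the threshold. Of the 15 alternative fits in all, 8 passed it, with a lowest adjusted p of 0.0980 by limma, at a pseudocount of 1. Like *Gm27326* below, *Snord87* averaged under 10 FPKM in shNAT10 and reached the minimum only through shNC. Both were thus partly selected for a difference. *Gm27326*, an annotated snoRNA without C/D or ACA letters in an intron of the ribosomal protein gene *Rpl23*, had 17.9 and 19.5 against 9.22 and 6.87 FPKM and a log2 fold change of -1.22 (SE 0.37) (adjusted p = 0.127). Its value was -1.28, -1.16, -1.43 and -1.01 when single libraries were removed, and only the fit without shNAT10-1 passed the threshold, as did 12 of 15 alternative fits in all (adjusted p from 0.0521 to 0.498 by limma). *Snora21*, in another intron of the same host, had a log2 fold change of -0.10, and *Rpl23* itself -0.24, neither of them called. The guides *Snord49a* (54.4 and 53.8 against 58.6 and 51.6 FPKM) and *Snord49b* (48.5 and 51.5 against 46.5 and 57.98 FPKM) had overlapping groups, although their host *2410006H16Rik* was called lower, at -0.76 on the log2 scale (adjusted p = 0.0157 by limma).

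Of the 25 snoRNA and scaRNA genes with the ACA, 0 were called by limma in either direction with all libraries, beside 9.55% and 8.74% of all genes, and 0 had p under 0.05 before adjustment. Without shNC-1 limma called 2 lower (8%, beside 8.33% of all genes), without each other library 0 and with the variance trend on FPKM 2, while limma-voom called 2 lower. U17 (*Snora73b*), which acts in 18S rRNA maturation, had 856 FPKM in shNC-1, 1162 FPKM in shNC-2, 834 FPKM in shNAT10-1 and 819 FPKM in shNAT10-2, with the shNAT10 values just below shNC-1 and a log2 fold change of -0.27 (SE 0.14) (adjusted p = 0.366). It lies across an exon of *Gm17300* on the other strand, which read 223 and 285 against 230.1 and 218 FPKM. *Gm26448*, which shares 87.8% of its bases with *Snora73b* and lies in an intron of *Rpsa*, had 572 and 808 against 687 and 682 FPKM and a log2 fold change of 0.01. *Gm24336*, in *Cwf19l1*, had 222 and 241 against 223 and 202 FPKM (-0.12), and *Snora78*, in *Snhg9*, had 160.3 and 247 against 218 and 179 FPKM (-0.01). *Snora57*, whose sequence is given above, had 64.4 and 58.6 against 64.6 and 59.1 FPKM and a log2 fold change of 0.01. Telomerase RNA (*Terc*), which ends in an H/ACA domain, had 167 and 212 against 166 and 179.8 FPKM and a log2 fold change of -0.12 (SE 0.14). The log2 fold changes of the 25 genes ran from -0.82 to 0.27, with a median of -0.17 (all genes 0.01).

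The 8 scaRNA genes, which guide modification of snRNAs, rested on a median of 2838 fragments per gene, and 0 were called by limma, which gave 0 at p under 0.05 before adjustment, while limma-voom called 1 lower. Without shNC-1 limma called 4 of them lower (50%, beside 8.33% of all genes), and without each of the other libraries 0. *Scarna2* had 965 FPKM in shNC-1, 1203 FPKM in shNC-2, 996 FPKM in shNAT10-1 and 999 FPKM in shNAT10-2, and its log2 fold change was -0.11 (SE 0.12). *Gm25395* and *Scarna6*, both in introns of *Atg16l1*, had 388 and 504 against 389 and 444 FPKM and 171 and 242 against 202 and 201 FPKM. *Gm22009*, in *Kpna4*, had 158 and 214 against 159 and 151 FPKM, and *Scarna13* had 122 and 192 against 147 and 126 FPKM. *Gm22442*, in an intron of *Chd3*, was the only scaRNA gene with both shNAT10 values below both shNC values, at 380.2 and 499.6 against 331 and 363 FPKM; its log2 fold change of -0.33 (SE 0.15) did not pass the threshold (adjusted p = 0.288), while its host was called lower (-0.48, adjusted p = 0.0861 by limma). *Scarna17* had 18.3 and 37.3 against 34.3 and 11.6 FPKM, with overlapping groups. *Scarna9*, annotated as a snoRNA in an intron of *Cep295*, had 101 and 80.6 against 112 and 107 FPKM and a log2 fold change of 0.28.

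Of the 26 snRNA genes, 10 were U1-like, 7 U2-like, 2 U4-like and 3 U5-like by sequence. The 10 U1-like genes summed to 638 and 1037 FPKM for shNC, against 994 and 809 FPKM for shNAT10, with the shNAT10 sums between the shNC sums. *Gm22513* held most of this, at 473 and 755 against 797 and 613 FPKM and a log2 fold change of 0.22 (SE 0.22). *Rnu1a1* is identical in sequence to *Gm22068*, *Gm25679*, *Gm26444* and *Gm23804*, yet these 5 genes had mean levels of 13.6, 52.6, 46.3, 22.2 and 13.2 FPKM, so the values of single copies are uncertain. *Rnu1b6* shows the same limit: it had 2.05 and 44.1 against 3.36 and 2.75 FPKM, with 87 of its 105 fragments in shNC-2, while the identical *Gm24830* had 14.4 and 26.4 against 19.7 and 20.4 FPKM.

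The single snRNA gene called higher was *Gm22614*, a U1 variant, whose sequence is given above. It averaged under 10 FPKM in shNC and is among the 103 genes only through shNAT10, so it was partly selected for this difference and its values are a description. It had 4.64 FPKM in shNC-1, 5.11 FPKM in shNC-2, 20.8 FPKM in shNAT10-1 and 27.7 FPKM in shNAT10-2, from 9, 10, 43 and 70 fragments, and its groups did not overlap. The means were 4.87 ± 0.326 and 24.2 ± 4.89 FPKM (SD, n = 2 each). The log2 fold change was 2.28 (SE 0.28), a 4.84-fold higher level in shNAT10 (adjusted p = 0.00709 by limma). The leave-one-out values were 2.21, 2.34, 2.48 and 2.07, and all 4 passed the threshold, as did 15 of 15 alternative fits in all (adjusted p from 1.39e-06 to 0.411 by limma). An identical copy on the other strand of the same locus, *Gm25890*, had 3.10 and 2.55 against 4.83 and 1.19 FPKM and was not called, so that of 2 copies sharing every base 1 passed the threshold. All 41 listed U1-like genes together, members or not, summed to 679 and 1094 against 1036 and 837 FPKM, which overlap.

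Of the 7 U2-like genes, 2 were called lower in shNAT10, where 8.74% of all genes tested were. *Gm25360*, which held most of the U2-like signal, had 351 FPKM in shNC-1, 584 FPKM in shNC-2, 296 FPKM in shNAT10-1 and 290.3 FPKM in shNAT10-2, with both shNAT10 values below shNC-1 and shNC-2. Its log2 fold change was -0.63 (SE 0.21) (adjusted p = 0.160). Leaving out single libraries gave -0.99, -0.26, -0.64 and -0.61, and only the fit without shNC-1 passed the threshold, as did 9 of 15 alternative fits in all (adjusted p from 0.00160 to 0.685 by limma). *Gm26316* had 18.7 and 26.5 against 15.02 and 12.98 FPKM and a log2 fold change of -0.67 (SE 0.27) (adjusted p = 0.231). With 1 library removed at a time the value became -0.92, -0.42, -0.77 and -0.56, and only the fit without shNC-1 passed the threshold, as did 9 of 15 alternative fits in all (adjusted p from 0.156 to 0.628 by limma). The other U2-like genes had log2 fold changes from -0.27 (*Gm25939*) to 0.34 (*Gm22973*) and were not called, among them *Gm24497*, with 45.5 and 84.7 against 62.99 and 51.6 FPKM. All 16 listed U2-like genes summed to 529 and 894 against 525 and 512 FPKM; the shNAT10 sums lay below both shNC sums, although shNAT10-1 and shNC-1 were nearly equal.

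The U4-like pair and the remaining spliceosomal RNAs were not called. *Gm24265* had 548 and 1152 against 685 and 577 FPKM and *Gm24407*, its neighbour on chromosome 5, had 281 and 637 against 436 and 343 FPKM; in both, the 2 shNAT10 values lay between the shNC values, which themselves were more than 2-fold apart. U5 was represented by *Rnu5g* (12.5 and 13.8 against 10.99 and 6.75 FPKM), *Gm23287* (21.3 and 27.6 against 15.8 and 20.2 FPKM) and *Gm22265* (3.67 and 18.9 against 11.7 and 11.2 FPKM), each on 64 to 126 fragments in all. Of the minor spliceosome, U12 (*Rnu12*) had a log2 fold change of -0.12 (SE 0.38). U11 (*Rnu11*) had 11.4 and 25.1 against 27.3 and 22.4 FPKM and 0.54 (SE 0.38), with shNC-1 below the other libraries. *Rnu11* lies across an exon of *Gm28872* on the other strand, which read 18.3 and 37.3 against 39.3 and 36.3 FPKM (0.53 (SE 0.33)). Whether fragments were counted by strand is not given, so reads of these 2 genes cannot be told apart here. *Gm25541*, which carries the 5′ sequence of U6atac, had 17.6 and 28.1 against 15.8 and 9.84 FPKM; its groups did not overlap, but its log2 fold change of -0.83 (SE 0.37) missed the threshold (adjusted p = 0.282).

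7SK (*Rn7sk*) had a log2 fold change of 0.09 (SE 0.15) (adjusted p = 0.790), with both shNAT10 values between the shNC values. *Gm24447*, 83.4% identical to 7SK over its length, had 146 and 174 against 143 and 140.1 FPKM and -0.17 (SE 0.13). The Y RNAs *Rny3* and *Rny1*, partners of the Ro protein, had 563 and 1164 against 903 and 775 FPKM and 113 and 192 against 155 and 131 FPKM; in each, shNC-1 was the lowest and shNC-2 the highest library. The vault RNA *Vaultrc5* had 22.03 and 27.7 against 21.7 and 20.98 FPKM and a log2 fold change of -0.21 (SE 0.25). 7SL was measured at *Rn7s1*, with 42.6 and 10.95 against 15.9 and 11.1 FPKM. That gene overlaps an exon of another gene on the same strand. The identical *Rn7s2*, just under the minimum, had 10.5 and 21.9 against 2.39 and 4.13 FPKM. The higher shNC library was shNC-1 at *Rn7s1* and shNC-2 at *Rn7s2*. *Rn7s2* was called lower (log2 fold change -2.23 (SE 0.41), adjusted p = 0.0299 by limma), with -2.76, -1.71, -1.85 and -2.62 when single libraries were left out, of which only the fit without shNC-1 passed the threshold, while *Rn7s1* had -0.70 (SE 0.54) and was not called. The RNase P RNA was measured at *Rpph1*, and *Rprl3* is an RNase P RNA-like gene that shares 77.1% of its bases with it. *Rprl3* had 491 and 683 against 508 and 462 FPKM and -0.26 (SE 0.15), and *Rpph1* had 10.1 and 12.1 against 8.49 and 9.61 FPKM. *Rpph1* shares an exon with *Ccnb1ip1* and was the gene nearest above 10 FPKM. The genes above 10 FPKM in this paragraph were not called.

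Of the 3 genes called higher, 2 lay opposite a gene that was itself called higher. *Gm27483* and *Gm27786*, annotated as misc_RNA on the plus strand of chromosome 7, lie across an exon of *H19*, an imprinted non-coding RNA that is transcribed from the minus strand. Both averaged under 10 FPKM in shNC and reached the minimum only through shNAT10, so they too were partly selected for a difference. *Gm27483* had 7.19 FPKM in shNC-1, 4.75 FPKM in shNC-2, 34.8 FPKM in shNAT10-1 and 26.6 FPKM in shNAT10-2, from 6, 4, 31 and 29 fragments, and did not overlap between groups (log2 fold change 2.36 (SE 0.38), adjusted p = 0.0181). Its value was 2.66, 2.07, 2.17 and 2.55 when single libraries were removed, and all 4 passed the threshold, as did 15 of 15 alternative fits in all (adjusted p from 8.01e-05 to 0.498 by limma). *Gm27786* had 10.9 and 0 against 22.8 and 24.2 FPKM, with 0 fragments in shNC-2, and a fitted log2 fold change of 4.49 (SE 1.74) that depends on the pseudocount (adjusted p = 0.214). The leave-one-out values were 7.88, 1.09, 4.53 and 4.44, and only the fit without shNC-1 passed the threshold, as did 8 of 15 alternative fits in all (adjusted p from 1.66e-05 to 0.747 by limma). *H19* had 1.52 and 1.40 against 6.77 and 6.81 FPKM, a log2 fold change of 2.14 (SE 0.16) (adjusted p = 0.00136 by limma). The labels name a kit that keeps strand and also an mRNA kit not stated to do so, and whether fragments were counted by strand is not given in the sources used here, so reads of the small RNA genes and of *H19* cannot be told apart here. *Gm27483* lies at chr7:142576853-142576923, plus strand, and its sequence is shown because it is the gene across *H19* with fragments in every library, with no part in capitals.
Gm27483: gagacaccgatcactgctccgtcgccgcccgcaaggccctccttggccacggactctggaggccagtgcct

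A further 6 misc_RNA genes and a ribozyme gene also lie across an exon of a gene on the other strand. *Gm27286*, *Gm27997*, *Gm28030* and *Gm27553* lie across exons of *5430416N02Rik*, which was called lower with 20.7 and 20.3 against 17.03 and 17.1 FPKM (log2 fold change -0.26 (SE 0.10), adjusted p = 0.209 by limma). Their own log2 fold changes were -0.28, 0.11, -0.17 and -1.03, and *Gm27553* alone was called, with 21.9 and 18.2 against 10.8 and 8.81 FPKM (adjusted p = 0.204). Leaving out single libraries gave -0.90, -1.16, -1.17 and -0.88, and none of these fits passed the threshold. Of the 15 alternative fits in all, 8 passed it, with a lowest adjusted p of 0.0699 by limma, at a pseudocount of 1. *Gm27553* averaged under 10 FPKM in shNAT10 and reached the minimum only through shNC, so it was partly selected for a difference. *Gm27747* (0.51) and *Gm27972* (0.01) lie across *Dleu2*, which was called higher (0.50 (SE 0.12)). *Gm25043*, annotated as a ribozyme, lies across an exon of *Gm6093*; it had 36.5 and 37.7 against 26.3 and 23.999 FPKM (-0.56 (SE 0.19), adjusted p = 0.158), beside 33.6 and 33.3 against 23.8 and 25.4 FPKM (-0.44 (SE 0.10)) for *Gm6093*. With 1 library removed at a time the value became -0.59, -0.54, -0.63 and -0.50, and only the fit without shNAT10-1 passed the threshold, as did 12 of 15 alternative fits in all (adjusted p from 0.0861 to 0.498 by limma). On the same strand, *Gm24616*, annotated as a snoRNA within an exon of *Eif4a2*, had 14.7 and 23.03 against 7.45 and 4.22 FPKM (-1.70 (SE 0.41), adjusted p = 0.0700), while *Eif4a2*, called lower as well, had a smaller difference (-0.31 (SE 0.09)). The value of *Gm24616* was -2.02, -1.37, -2.10 and -1.29 when single libraries were removed, and only the fit without shNAT10-1 passed the threshold. In all, 12 of 15 alternative fits passed it. Adjusted p was 0.00347 by limma with the replicate block, 0.0323 by limma-voom and 0.302 by limma without a variance trend. In all, 5 of the 11 genes called overlap an exon of another gene, against 18 of the 103. Of these 5, all but *Gm25043* reached the minimum of 10 FPKM through 1 group only. The calls are therefore not independent of the choice of genes, and a link between calls and overlap was not tested.

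**Figure D4:**
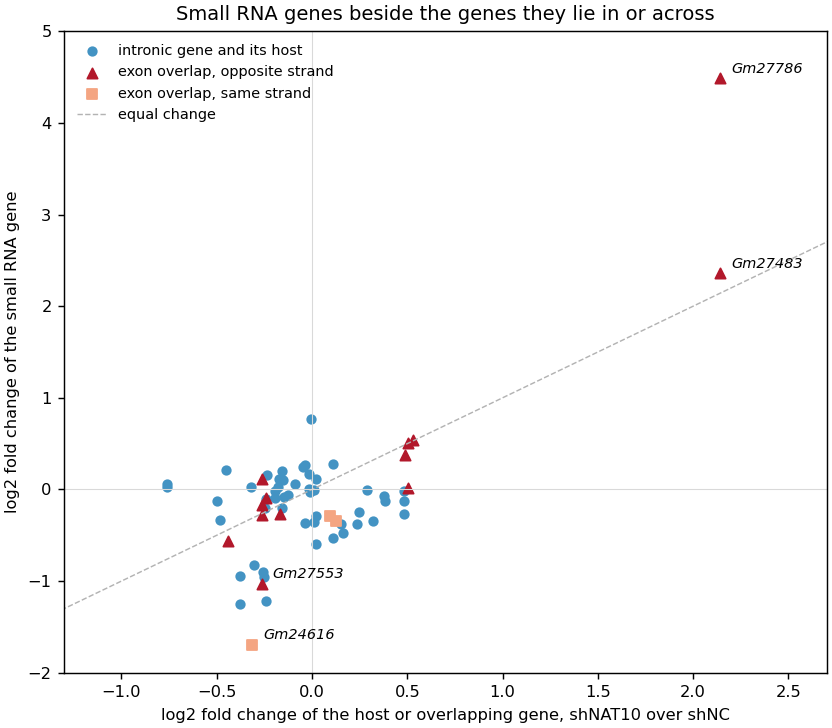
Log2 fold change of each small RNA gene (vertical axis) against that of the gene it lies in or across (horizontal axis), shNAT10 over shNC, with circles for intronic genes and their hosts, triangles for genes across an exon on the other strand, squares for genes within an exon on the same strand, and a dashed line where both are equal. *Gm27483* and *Gm27786* lie at the far right with *H19*, and the hosts of intronic genes stay between -0.76 and 0.48.

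Mouse snoRNAs are mostly cut from introns, and 51 of the 103 genes, 42 of them snoRNA genes, lay in an intron of a same-strand host. The rest were 4 scaRNA and 5 snRNA genes, counted here by place alone. The snRNA genes lay in *Tex14* and in the lincRNA *D230017M19Rik*, which read 0.112 to 0.379 FPKM and had the highest host value, 0.48. The 51 genes had 40 hosts, 36 of them protein-coding. These included ribosomal protein genes (*Rpl3*, *Rpl4*, *Rpl5*, *Rpl17*, *Rpl23*, *Rpl37*, *Rpsa*) and translation factors (*Eif4a1*, *Eef1b2*). Without shNAT10-1 or shNAT10-2 only 1 host was called in each fit (2.56%, beside 9.98% and 10.7% of all genes). Of the 39 hosts tested with all libraries, 3 were called higher (*Cwf19l1*, *Odc1* and *Wdr43*) and 6 lower (*Chd3*, *2410006H16Rik*, *Rpl37*, *Hspa9*, *Ctage5* and *Rpl3*), or 7.69% and 15.4% beside 9.55% and 8.74% of all genes. None of these 9 held a small RNA gene that was called, and neither *Rpl23* nor *Snhg6*, the hosts of the 2 intronic genes that were called, was itself called. The median log2 fold change was -0.13 over hosts and -0.09 over the intronic genes, and 25 intronic genes had a lower value than their host and 25 a higher one. *Rpl3* had a log2 fold change of -0.45 and the *Snord83b* in it 0.21. *Nop58*, a box C/D core protein gene, had -0.00364 and the *Snord70* in it 0.77, which was not called. *Snord70* averaged under 10 FPKM in shNC and reached the minimum only through shNAT10, so it was partly selected for a difference. The median of shNC-2 minus shNC-1 was 0.13 over hosts and 0.39 over the intronic genes.

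The proteins that bind, assemble or process these RNAs were looked up in 10 lists with 84 genes tested, of which 8 were called higher and 6 lower (16.7% in all), beside the background shares of 9.55% and 8.74% given above. The calls were 3 without shNAT10-1 (3.57% beside 9.98% of all genes), 5 without shNAT10-2 (5.95% beside 10.7%), 14 without shNC-1 (16.7% beside 17.5%), 12 without shNC-2 (14.3% beside 16.3%) and 15 by limma-voom (17.9% beside 19.4%). Of the 4 box C/D core proteins 0 were called by limma or limma-voom: *Fbl*, the methyltransferase, had 30.4 and 27.7 against 27.6 and 27.7 FPKM, and *Snu13* 49.4 and 40.02 against 43.2 and 35.3 FPKM. Of the 4 box H/ACA core proteins, *Nhp2* was higher, with 76.8 and 77.99 against 104 and 98.01 FPKM and a log2 fold change of 0.38 (SE 0.10) (adjusted p = 0.0856), while *Nop10* had 16.8 and 14.3 against 15.7 and 14.2 FPKM and the pseudouridine synthase *Dkc1* 15.4 and 13.02 against 16.6 and 13.8 FPKM. Of 10 assembly factors 0 were called by limma and 1, higher, by limma-voom; they include *Ruvbl1* (0.15) and *Ruvbl2* (-0.15). In the Cajal body and SMN list of 9, *Gemin6* was higher (0.51 (SE 0.20), adjusted p = 0.221) and *Gemin7* lower (-0.49 (SE 0.16), adjusted p = 0.156). These lists thus held single genes in both directions.

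With single libraries left out the number called changed in at least 1 fit for each list except the box C/D core (0) and box H/ACA core (1 higher). Of the 10 RNase P and MRP proteins, *Rpp25* and *Pop1* were higher (0.77 (SE 0.18), adjusted p = 0.0618, and 0.36 (SE 0.13), adjusted p = 0.196), with 0 lower, while 0 were called without shNAT10-1 or shNAT10-2 and 1 higher and 1 lower without shNC-1. Of 7 genes around 7SK, *Hexim2*, which with 7SK inhibits P-TEFb, was lower, at 7.35 and 10.9 against 5.84 and 6.21 FPKM (-0.56 (SE 0.20), adjusted p = 0.173), and *Cdk9*, the kinase of P-TEFb, had 10.5 and 8.95 against 9.90 and 9.96 FPKM. In the 6-gene signal recognition particle list, *Srp72* was lower (-0.28 (SE 0.09), adjusted p = 0.156). In the 5-gene Ro and vault list, *Trove2*, the Ro protein, was higher (0.39 (SE 0.13), adjusted p = 0.153), and the vault protein *Parp4* was lower, with 2.35 and 2.49 against 1.32 and 1.31 FPKM and a log2 fold change of -0.83 (SE 0.15); with an adjusted p of 0.0295 it was the single gene of all lists under 0.05. Among 22 genes of snRNA transcription and 3′ processing, *Ice1* was lower (-0.52) and the Integrator subunits *Ints2* (0.44) and *Ints8* (0.51) higher, while *Ints11*, the catalytic subunit, had 30.9 and 31.9 against 27.6 and 31.7 FPKM; the calls became 4 higher and 0 lower without shNC-1, 0 and 0 without shNAT10-1, and 0 and 2 without shNAT10-2. Of 7 genes that trim 3′ ends, *Skiv2l2*, a helicase of the nuclear exosome, was higher (0.44 (SE 0.11), adjusted p = 0.0746) and the deadenylase *Parn*, which matures telomerase RNA and H/ACA RNAs, lower (-0.30 (SE 0.10), adjusted p = 0.143).

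*Rpph1*, just inside, averaged 10.1 FPKM, and *Gm27845*, just outside, averaged 9.87 FPKM, with 15.7 and 0.739 against 10.5 and 12.6 FPKM. With limits of 5 and 20 FPKM in place of 10, there were 148 and 65 genes, with median log2 fold changes of -0.13 and -0.12. At the higher limit 0 genes were called higher and 3 lower, these being *Snord13*, *Gm25360* and *Gm25043*.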

How the data were processed

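Long RNA-seq of mouse FGSCs was analysed in 4 libraries, 2 labelled shnc (shNC) and 2 labelled shnat10 (shNAT10). The authors deposited 1 table of FPKM per gene and library, which was used as given, and per the labels their processing named cutadapt, HISAT2, DESeq2 and the mm10 build. The labels name both a directional kit after mRNA isolation and another mRNA kit, and the study's methods an rRNA-depleted library, so which preparation applies is not settled here. How strand and reads with several matches were counted is not given in the sources used here. Columns with the authors' own comparisons hold fold changes and p-values and were not used, and 0 columns of per-sample values were left unmapped.

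Genes with a mean of at least 0.1 FPKM and a GENCODE M21 exon length (20077 of 53465; 39 others lacked a length) were tested with limma 3.58.1 in R 4.3.3 on log2(FPKM + 0.1), fitting both groups together, with a variance trend on the fragments recovered from FPKM and exon length, since short genes hold few fragments at a given FPKM. All member values under 50 recovered fragments were whole within 0.05. Fold changes are on the log2(FPKM + 0.1) scale and understate changes of low genes, SE is the moderated standard error, and adjusted p is by Benjamini-Hochberg over all genes tested. A gene was called beyond 1.2-fold with an unadjusted p up to 0.05. Snord and Snora follow the symbol, box and Sm letters were searched in the transcript, and host or overlap follows the annotation. Named were the genes of at least 10 FPKM on a list of small RNAs by role (the others of that list are counted, and some named), the 5 highest per biotype, the called genes with non-overlapping groups and at least 30 fragments (up to 5 in each direction, the further ones as members of a count), the genes next to 10 FPKM and, of the protein lists, called genes and up to 2 others of the highest level. The genes described and the lists were chosen with earlier results of these data known. Alternatives were another pseudocount, filter, trend, scaling and FPKM minimum, limma-voom on recovered fragments, a replicate block and each library left out. For protein, host and single genes they were added after seeing the data. The scaling by median ratios to the gene means could not change the fit, because this ratio was 1.004 in every library. Each count over 15 alternative fits thus includes a near repeat of the main fit. The ranges of adjusted p over these fits include the replicate block and the fits with a library left out. Tables and figures used Python 3.11.15, numpy 2.4.6, pandas 2.3.3, matplotlib 3.10.9 and edlib 1.3.9.post1. 1 sequence and 1 host gene are not reported here.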

Additional observations from a re-analysis of the deposited data

How the results depend on the processing

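Of the 103 small RNA genes, 3 were called higher and 8 lower. The lower count was 5 with a pseudocount of 0.01, 15 with a pseudocount of 1, 13 with the variance trend on mean log2 FPKM, 3 among genes of at least 20 FPKM and 5 among genes that overlap no exon of another gene, and the higher count was 0 at 20 FPKM and 1 without such overlaps. With single libraries left out the higher count ranged from 2 to 6 and the lower count from 0 to 15, the calls over all 20077 genes from 2004 to 3516 (3673 with all libraries), and the protein genes called from 3 to 14 (14 with all libraries, 4 without a variance trend). The median log2 fold change ranged from -0.40 to 0.10 over the 103 genes, from -0.32 to 0.0718 for Snora, from -0.16 to -0.0667 over the host genes, and for *Nat10* the log2 fold change ranged from -1.35 to -0.83. The difference of the Snord and Snora medians ranged from -0.15 to 0.11 and was 0.10 with a minimum of 5 FPKM. The Snord median (-0.07) ranged from -0.21 to 0.10 with single libraries left out and was 0.02 with a minimum of 5 FPKM, moves of less than the spread within a group, and no value with a test changed direction in the alternatives run. The cause of these changes was not tested, except that the membership alternatives hold fewer or more genes and the leave-one-out fits fewer libraries.

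An adjusted p under 0.05 was reached by 669 genes with all libraries, 1580 by limma-voom, 1207 with a minimum of 1 FPKM, 314 and 376 with pseudocounts of 1 and 0.01, 88 with the trend on FPKM, and 0 without a filter, without a trend or with any library left out; for the 103 genes it was 2 with all libraries and 6 by limma-voom. Replicate numbers did not pair the libraries (same-number correlation 0.00701 over all genes); with the replicate block 18 of the 103 genes (17.5%, beside 9.76% of all genes) were lower, 3 higher and 7 under an adjusted p of 0.05, and 1918 of all genes. The SE did not follow depth alone: it was 0.15 for *Rn7sk* with 1118621 fragments, 0.29 for *Gm24265* with 5294 and 0.39 for *Snord87* with 56.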

Other observations

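Some intronic genes had a log2 difference of over 0.7 that did not pass the threshold, and those given here were chosen after their values were seen. Of the 103 genes 51 lie in an intron of a same-strand host, and *Rnu1b6* (-1.64 (SE 1.13)), the largest difference without a call, and *Gm25541* (-0.83 (SE 0.37)) do not. *Hspa9*, a mitochondrial chaperone gene that was itself called lower, at -0.38 on the log2 scale (adjusted p = 0.0691 by limma), holds *Gm22200* and *Gm26109*, with log2 fold changes of -1.25 (SE 0.91) and -0.94 (SE 0.45). *Gm22200* had 21.6 and 6.29 against 11.9 and 1.95 FPKM and *Gm26109* had 18.2 and 15.6 against 6.83 and 11.2 FPKM, so that single libraries differed widely within a group. *Gm22571*, in the ribosomal protein gene *Rpl4*, had 35.3 and 19.3 against 14.8 and 13.05 FPKM and a log2 fold change of -0.90 (SE 0.40). *Snord70*, in *Nop58*, had 7.83 and 11.6 against 15.6 and 17.2 FPKM and a log2 fold change of 0.77 (SE 0.39). *Snord70* averaged under 10 FPKM in shNC, and *Gm22200*, *Gm26109* and *Rnu1b6* averaged under 10 FPKM in shNAT10. These genes reached the minimum through the other group only and were partly selected for a difference.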
